A study of Mus musculus with 21 samples.

Results

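Vdr encodes the vitamin D receptor and lies on mouse chromosome 15. The 53 genes described here flank it on that chromosome, from Yaf2 on one side to Tfcp2 on the other. They were chosen by name and position, not by any measured value, although earlier results of these data were known. All 53 were found among the 37310 genes of the files, 52 under the same symbol and Tfcp2 through its identifier, since the files list it as Tcfcp2. Of these, 20 lie before Vdr and 33 after it. A filter on low counts kept 50 of the 53, with 18 before Vdr and 32 after it, and Nell2, Endou and Wnt10b were too low to test. Nell2 had at most 20 counts in any library, Endou at most 1 and Wnt10b at most 12. The same stretch holds 76 other genes, of which 25 were tested.

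RNA was sequenced from intestinal cells sorted for green fluorescence driven by Lgr5, a marker of crypt stem cells. The mice were of the strain Lgr5EGFPcre-ERT2, were fed a purified diet from weaning, and were 3 months old. The 7 groups of 3 libraries were AIN (fed AIN76A), NWD1, NWD2, NWD1Ca, NWD1VitD, AINlowVitD and AIN_VdrKO (fed AIN76A, strain labelled Lgr5EGFPcre-ERT2/VdrKO). The labels put calcium at 7.0 mg/g in NWD1Ca, and vitamin D at 2.3 IU/g in NWD1VitD but 0.11 IU/g in AINlowVitD. All groups therefore carry the Lgr5 reporter and Cre allele, and the labels name no Cre activation. The 3 AIN_VdrKO mice were male, whereas AIN and AINlowVitD each held 2 females and 1 male. The labels name neither the part of Vdr that was removed nor the strain from which the allele came.

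The vitamin D receptor is a nuclear receptor that binds the active form of vitamin D, pairs with a retinoid X receptor and attaches to DNA at paired half-sites. In the intestine it is best known for the control of calcium absorption. Its neighbours on the chromosome have unrelated functions, from amino acid transport to tubulin, and are united by position. Genes close to an engineered allele are inherited together with it. The question asked of these genes was whether the AIN_VdrKO libraries differed from AIN and from AINlowVitD more often in them than in other expressed genes.

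Of the 50 tested genes, 5 were lower in AIN_VdrKO than in the mean of AIN and AINlowVitD by edgeR and 0 were higher. At an unadjusted p under 0.05 the counts were 10 lower and 7 higher, 17 of 50 beside 2887 of all 16050 tested genes. DESeq2 called 7 lower and 1 higher, 8 of 50 beside 7.10% of all genes. The 5 were Tmem117, Rpap3, Prkag1, Lmbr1l and Gpd1. The 5 called by edgeR make up 10% of the tested flanking genes, against 3.53% of all 16050 tested genes called in either direction and 1.26% called lower. Tmem117, which encodes a transmembrane protein, had the lowest fold change and was the only 1 of the 50 that was lower against AIN and against AINlowVitD separately. Of the 50, 30 had a fold change within 0.5 of 0 on the log2 scale. On the deposited TPM scale, limma called 3 of the 50 against the mean, beside 4.45% of all genes, which is near that background.

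The 3 genes whose AIN_VdrKO libraries lay below all 18 libraries of the other groups were Tmem117, Rpap3 and Prkag1. The 250 bases before their RefSeq starts (GRCm38.p6, each read 5′ to 3′ on the strand of its gene) are shown because the receptor acts through DNA near its targets. Capitals mark a match to AGGTCA or AGTTCA on either strand, which are among the forms of the half-site of a vitamin D response element. Other forms are not marked or counted.
Tmem117: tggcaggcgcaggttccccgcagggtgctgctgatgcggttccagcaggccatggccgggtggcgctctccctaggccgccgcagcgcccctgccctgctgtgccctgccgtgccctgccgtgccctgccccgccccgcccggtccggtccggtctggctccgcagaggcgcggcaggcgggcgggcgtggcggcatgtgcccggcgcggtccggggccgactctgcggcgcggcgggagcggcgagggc
Rpap3: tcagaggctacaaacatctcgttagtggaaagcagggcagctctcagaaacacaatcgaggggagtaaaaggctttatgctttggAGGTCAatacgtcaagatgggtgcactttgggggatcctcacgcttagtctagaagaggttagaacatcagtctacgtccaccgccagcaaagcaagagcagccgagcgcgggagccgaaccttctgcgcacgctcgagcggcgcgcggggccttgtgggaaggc
Prkag1: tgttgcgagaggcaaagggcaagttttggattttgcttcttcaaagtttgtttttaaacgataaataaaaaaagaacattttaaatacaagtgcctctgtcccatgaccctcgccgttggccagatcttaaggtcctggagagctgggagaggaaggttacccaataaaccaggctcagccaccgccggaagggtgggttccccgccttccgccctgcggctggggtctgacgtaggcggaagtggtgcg
Rpap3 held 1 half-site of these forms, which ends 160 bases before the start, and neither of the others held any of these forms. A half-site of these forms was found in 13 of 55 RefSeq promoters of 41 flanking genes (23.6%) and in 7937 of 32851 promoters of all genes (24.2%), all of the same length. The direct repeat of 2 such half-sites with 3 bases between them was found in none of the 55, and in 4 of the 32851 (0.0122%). A match is a string of letters in this window and not a measured binding site.

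Gene counts per library ran from 19889795 to 115435120, and the deepest library was AIN_VdrKO 3. The control groups were far apart: 31.3% of all tested genes were called between AINlowVitD and AIN. A call here means an adjusted p under 0.05 by edgeR's quasi-likelihood test, unless DESeq2, limma or TPM is named. Sums over 8 markers of stem cells were 3716 to 6613 CPM (counts per 1000000 counts of a library, scaled by TMM) in AIN_VdrKO. They overlapped those of AIN (2122 to 3973) and lay above those of AINlowVitD (975 to 2611). Olfm4, with a mean of 3626 CPM in AIN_VdrKO, made up most of the sum there and did not pass against the mean of both (edgeR adjusted p = 0.624). Of the 8 markers, 2 were called higher against AIN, and 0 were called against AINlowVitD or the mean. The 9 enterocyte markers summed to 7072 to 12787 CPM in AIN_VdrKO, to 11511 to 17933 in AIN and to 18136 to 61636 in AINlowVitD. The sum over 6 goblet cell markers ran from 4533 to 8824 in AIN_VdrKO and lay below both control groups, as did that over 6 tuft cell markers (199 to 292, against 322 to 846 in AIN and 345 to 558 in AINlowVitD). The single goblet marker called against the mean of these groups, Clca1, was higher (log2 fold change 1.59, edgeR adjusted p = 0.0129). Tff3 was lower than in AINlowVitD (edgeR adjusted p = 0.0117) but did not pass against AIN (edgeR adjusted p = 0.586). The 6 Paneth markers (8271 to 35596) lay above those of AIN (4565 to 6510) and overlapped those of AINlowVitD (10928 to 52057). Leukocyte markers summed to at most 20.3 CPM, and stromal and endothelial markers to at most 2.78 CPM, in these 3 groups. In bulk RNA, fewer cells of a type and less RNA per cell cannot be told apart.

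Vdr itself was counted at 297, 482 and 247 CPM in AIN_VdrKO. The AIN libraries had 338, 373 and 746 CPM, and the AINlowVitD libraries 250, 273 and 155 CPM. In CPM the AIN_VdrKO libraries overlapped both groups. On the deposited TPM scale they had 72.0, 140 and 102 TPM and overlapped AIN (105, 127 and 330 TPM). They lay above AINlowVitD there (39.6, 46.0 and 23.8 TPM). The level of reads over the whole gene therefore does not check the label, and "AIN_VdrKO" below means the libraries labelled so. The log2 fold change was -0.56 ± 0.37 (SE, n = 3 against 3) against AIN, with an edgeR adjusted p of 0.348. Against AINlowVitD it was 0.52 ± 0.39, with an edgeR adjusted p of 0.469. Vdr was lower in AINlowVitD than in AIN by edgeR (log2 fold change -1.08 ± 0.36, adjusted p = 0.0278). Mean Vdr was 226 CPM in AINlowVitD, 288 CPM in NWD1Ca and 269 CPM in NWD1VitD. It was 486 CPM in AIN, 922 CPM in NWD1 and 781 CPM in NWD2. A low mean was therefore not limited to the group labelled low in vitamin D, and the cause of the difference was not tested.

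**Figure D1:**
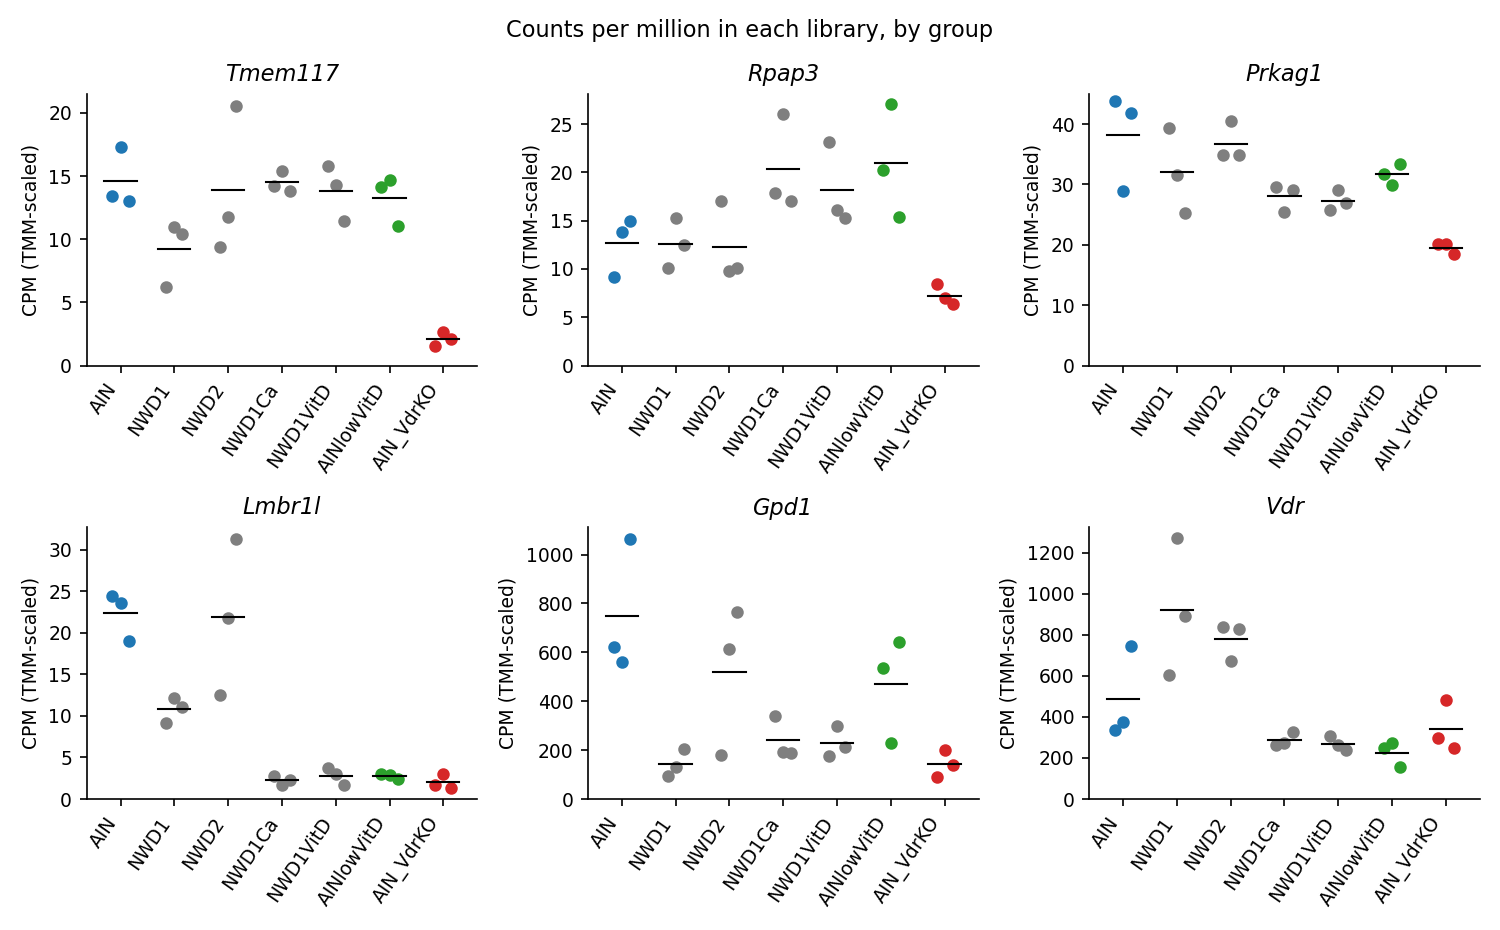
TMM-scaled CPM (vertical axis, linear from 0) of 5 flanking genes and Vdr in each of the 21 libraries, by group; points are libraries and horizontal lines are group means. Tmem117, Rpap3 and Prkag1 sit lower in the 3 AIN_VdrKO libraries than in any other library, whereas Lmbr1l, Gpd1 and Vdr overlap other groups.

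Tmem117 (ENSMUSG00000063296.4) was the 13th tested gene before Vdr. Its level was 1.53, 2.65 and 2.07 CPM in AIN_VdrKO. In AIN it was 13.4, 17.3 and 13.1 CPM, and in AINlowVitD 14.1, 14.7 and 11.02 CPM. The groups did not overlap, and the lowest of the other 18 libraries, NWD1 1, had 6.24 CPM. The mean was 2.09 ± 0.56 CPM (SD, n = 3) in AIN_VdrKO, 14.6 ± 2.37 in AIN and 13.3 ± 1.99 in AINlowVitD. The fold change was -2.54 ± 0.31 on the log2 scale against AIN (edgeR adjusted p = 5.38e-05) and -2.40 ± 0.31 against AINlowVitD (edgeR adjusted p = 0.000641). AINlowVitD and AIN did not differ detectably in Tmem117 (-0.14 ± 0.27, edgeR adjusted p = 0.724).

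Tmem117 was also lower in AIN_VdrKO than in each of the 4 remaining diet groups. The smallest of these 4 differences was against NWD1, at -2.01 ± 0.29 log2 (edgeR adjusted p = 0.000135), and the largest was against NWD1VitD, at -2.61 ± 0.30 (edgeR adjusted p = 0.000107). On the deposited TPM scale, which divides by gene length, the AIN_VdrKO libraries had 0.756, 1.57 and 1.73 TPM, and the lowest other library had 3.34 TPM. AIN_VdrKO was therefore the lowest group on both scales, whereas the order of the other groups differed. Nell2 overlaps Tmem117 on the opposite strand, and the library kit does not keep strand. Nell2 had 0, 1 and 0 counts in AIN_VdrKO, where Tmem117 had 38, 61 and 291. Against the mean of AIN and AINlowVitD, Tmem117 was called under all 19 alternative settings, with a highest adjusted p of 0.0251 in male libraries alone.

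Rpap3 (ENSMUSG00000022466.5) encodes a co-chaperone that helps assemble RNA polymerases, and was the 4th tested gene before Vdr. It had 8.44, 6.96 and 6.32 CPM in AIN_VdrKO. The AIN libraries had 9.17, 13.8 and 14.96 CPM, and the AINlowVitD libraries 20.3, 27.1 and 15.4 CPM. No library of the other 6 groups lay in the range of AIN_VdrKO, but AIN 1 came close to it. Rpap3 was lower than in AINlowVitD, at -1.61 ± 0.35 log2 (edgeR adjusted p = 0.0158). The difference from AIN, -0.87 ± 0.33, did not pass (edgeR adjusted p = 0.0919). It was lower than the mean of both, at -1.24 ± 0.31 (edgeR adjusted p = 0.0342), and was called in 11 of 19 alternative settings.

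Prkag1 (ENSMUSG00000067713.5) encodes a regulatory gamma subunit of AMP-activated protein kinase, the cell's energy sensor, and was the 17th tested gene after Vdr. Its 3 AIN_VdrKO libraries were nearly equal, at 20.1, 20.1 and 18.5 CPM. AIN had 43.8, 28.9 and 41.9 CPM, and AINlowVitD had 31.7, 30.0 and 33.4 CPM. The groups did not overlap, and every other library had at least 25.3 CPM. The fold change was -1.07 ± 0.22 log2 against AIN (edgeR adjusted p = 0.00436) and -0.93 ± 0.20 against the mean of both groups (edgeR adjusted p = 0.0171). Against AINlowVitD it was -0.80 ± 0.22 and did not pass (edgeR adjusted p = 0.0576).

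The scaling matters for Rpap3 and Prkag1, and for some genes given further below. On the deposited TPM scale the mean of Prkag1 was 20.9 ± 4.77 TPM (SD, n = 3) in AIN_VdrKO and 17.4 ± 0.27 in AINlowVitD, so that its direction against AINlowVitD turned. Rpap3 had 5.06 to 6.52 TPM in AIN_VdrKO and 5.93 to 11.4 in AINlowVitD, which overlap. On log2(TPM + 1), the median of all tested genes moved by 0.74 in the comparison with AINlowVitD, and neither gene was called against the mean (limma adjusted p = 0.147 for Prkag1 and 0.265 for Rpap3). Of the genes below all 18 other libraries, only Tmem117 was so on TPM.

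Lmbr1l (ENSMUSG00000022999.8), a membrane protein with a role in lymphocytes, differed in another way. Its level was 1.70, 2.96 and 1.37 CPM in AIN_VdrKO and 24.5, 23.5 and 19.1 CPM in AIN. The AINlowVitD libraries, at 3.07, 2.91 and 2.46 CPM, overlapped AIN_VdrKO, as did those of NWD1Ca and NWD1VitD. Lmbr1l was lower than in AIN, at -3.26 ± 0.38 log2 (edgeR adjusted p = 3.95e-05), and against AINlowVitD the fold change was -0.27 ± 0.37 (edgeR adjusted p = 0.714). AINlowVitD was itself lower than AIN, at -2.99 ± 0.36 (edgeR adjusted p = 2.63e-05). The call against the mean of the 2 groups therefore rests on AIN.

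Gpd1 (ENSMUSG00000023019.6), the cytosolic glycerol-3-phosphate dehydrogenase that links glycolysis with lipid synthesis, had 88.9, 199 and 138 CPM in AIN_VdrKO. AIN had 624, 559 and 1064 CPM, and AINlowVitD had 534, 230 and 641 CPM. The AIN_VdrKO libraries lay below all 6 of these, and 2 of the 3 lay within the range of NWD1, at 95.3, 131 and 206 CPM. The fold change was -2.32 ± 0.52 log2 against AIN (edgeR adjusted p = 0.0068) and -1.64 ± 0.52 against AINlowVitD (edgeR adjusted p = 0.0868). Against NWD1 it was 0.05 ± 0.50 (edgeR adjusted p = 0.957). The sum over enterocyte markers, given above, was also lower in AIN_VdrKO than in most control libraries, with 0 of 9 markers called against the mean by edgeR or DESeq2, 2 of 9 lower at an unadjusted p under 0.05, and a median fold change of -0.97 log2, and its part in the Gpd1 result was not tested.

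Leaving out single libraries changed the calls against the mean other than that of Tmem117. Without AIN_VdrKO 3, the deepest library, Tmem117 was the only 1 of the 50 called (beside 1.21% of all tested genes), and the edgeR adjusted p values of the other 4 rose to 0.0545 for Lmbr1l, 0.0681 for Prkag1, 0.121 for Gpd1 and 0.138 for Rpap3. With AINlowVitD 1 or AINlowVitD 3 left out, 3 of the 50 were called, beside 1.82% and 0.935% of all tested genes. Without AIN 1, AIN 2 and NWD1 1, which stood apart in earlier results, 10 were called, beside 9.34%.

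**Figure D2:**
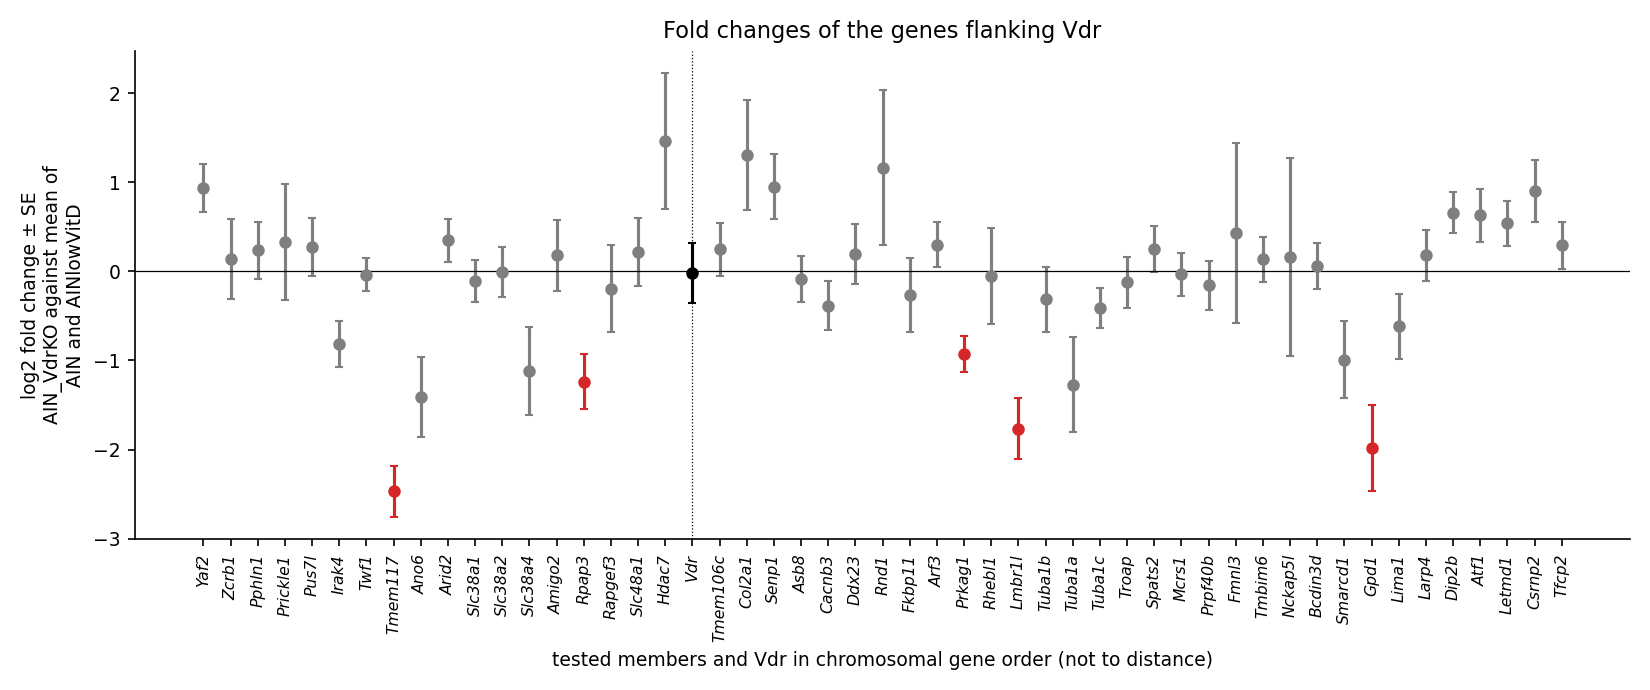
Log2 fold change with its standard error (vertical axis) of AIN_VdrKO against the mean of AIN and AINlowVitD for the 50 tested flanking genes and Vdr (black, dotted line), in gene order and not to distance. The 5 genes called lower are red and lie on both sides of Vdr, 2 before it and 3 after it, and all other genes shown did not pass the test.

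The called genes were not the nearest neighbours. Hdac7, a histone deacetylase, is the nearest tested gene before Vdr and had 3.55, 4.87 and 1.47 CPM in AIN_VdrKO. AIN had 0.698, 1.15 and 1.69 CPM and AINlowVitD 0.959, 2.42 and 0.831 CPM, which overlap it. Its fold change against the mean was 1.47 ± 0.76 log2, the highest of the 50, and did not pass (edgeR adjusted p = 0.321). Tmem106c, the nearest after Vdr, had a fold change of 0.25 ± 0.30 (edgeR adjusted p = 0.71). Its AIN_VdrKO libraries, at 11.2, 20.9 and 24.0 CPM, lay above those of AINlowVitD (6.93 to 10.4 CPM), and 1 of them reached the range of AIN (22.7 to 27.4 CPM). Of the 13 flanking genes within 10 tested genes of Vdr, 1 was called against the mean, namely Rpap3. This stands beside 5 of all 50 and 3.53% of all tested genes, and 1 gene is too few to show a pattern by distance.

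Against AIN alone, 10 of the 50 were called (20%, against 12.5% of all tested genes). The 6 of 50 that were lower, against 5.09% of all tested genes, were Irak4, Tmem117, Slc38a4, Prkag1, Lmbr1l and Gpd1. The 4 of 50 that were higher, beside 1194 of all 16050 tested genes and so near that background, were Yaf2, Col2a1, Ddx23 and Dip2b. All 4 of these were also higher in AINlowVitD than in AIN, but both comparisons use the same AIN libraries. Ddx23, an RNA helicase of the spliceosome, shows the pattern. It had 3.91, 3.40 and 3.41 CPM in AIN, 18.1, 20.8 and 23.1 CPM in AINlowVitD, and 19.8, 9.05 and 5.87 CPM in AIN_VdrKO. Its AIN_VdrKO libraries spread over the gap between the 2 diets. Col2a1, a cartilage collagen, had 0 to 5 counts in every library of AIN, NWD1 and NWD2, 23 to 64 in NWD1Ca, NWD1VitD and AINlowVitD, and 11, 9 and 37 in AIN_VdrKO.

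Against AINlowVitD alone, 2 of the 50 were called, Tmem117 and Rpap3, both lower (4%, against 3.07% of all tested genes). No flanking gene was called higher there by edgeR, where 5 had an unadjusted p under 0.05 and DESeq2 called 2. Leaving out AIN_VdrKO 1 raised the count of 2 to 12, beside 11.8% of all tested genes, and leaving out AIN 3 raised it to 4, beside 5.32%. It fell to 1 without AIN_VdrKO 2 or AIN_VdrKO 3, beside 0.845% and 0.797%. It was 9 with DESeq2 and 10 without the term for sex, where 7.26% and 8.19% of all tested genes were called. On log2(TPM + 1), 14 were called higher and 1 lower, beside 32.1% of all tested genes. Tmem117 alone was called in the same direction against both groups (2%, against 0.673%), a count that was 2 without AIN 1, without AIN 3 or without AIN_VdrKO 1. It was 4 with DESeq2 and 4 without the term for sex, where Ano6, Gpd1 and Prkag1 joined Tmem117 and the shares of all genes were 1.62% and 1.72%. Without a filter it was 4 (Ano6, Gpd1, Tuba1a and Tmem117), beside 1.39%. These comparisons share the AIN_VdrKO libraries. Between AINlowVitD and AIN, where no group is labelled VdrKO, 11 of the 50 differed (22%, against 31.3%), 6 higher and 5 lower. Beside Lmbr1l, the other 4 lower were Tmem106c, Asb8, Troap and Mcrs1, and beside Yaf2, Col2a1, Ddx23 and Dip2b, the other 2 higher were Zcrb1 and Fkbp11.

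**Figure D3:**
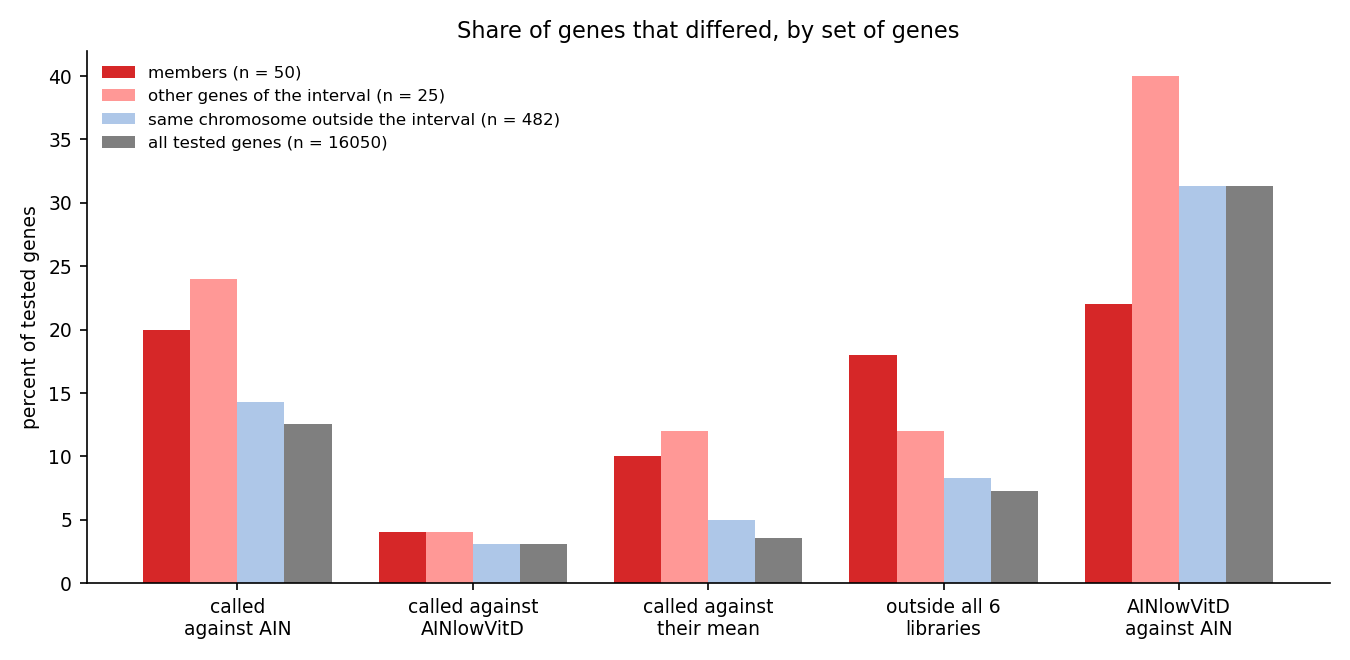
Percent of tested genes (vertical axis, from 0) that were called in each comparison, or whose 3 AIN_VdrKO libraries lay outside all 6 AIN and AINlowVitD libraries, in the 50 flanking genes, the 25 other tested genes of the same stretch, 482 genes elsewhere on the chromosome and all 16050 tested genes. The flanking genes stand at 10% against the mean and 18% outside all 6 libraries, where all tested genes stand at 3.53% and 7.30%, and at 22% against 31.3% between AINlowVitD and AIN.

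A measure that needs no model counts the genes whose 3 AIN_VdrKO libraries lay outside all 6 libraries of AIN and AINlowVitD. This held for 9 of the 50 (18%, against 7.30% of all tested genes). The 8 of 50 that were lower, against 3.19% of all tested genes, were Irak4, Tmem117, Ano6, Rpap3, Prkag1, Tuba1a, Gpd1 and Lima1, and Csrnp2 was higher. Outside all 18 other libraries lay 3 of the 50, all lower (6%, against 2.22% in either direction and 0.829% lower). On TPM the first count was 3 of 50 in place of 9, against 6.98% of all tested genes, so the flanking genes then stood no higher than genes at large. Of the second count on TPM, Tmem117 was lower and Yaf2 higher (2 of 50, against 1.94%).

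Irak4, a kinase of Toll-like and interleukin-1 receptor signalling, had 21.5, 20.7 and 19.6 CPM in AIN_VdrKO. AIN had 41.0, 37.9 and 55.4 CPM and AINlowVitD 38.5, 32.9 and 30.4 CPM. In CPM the libraries did not overlap, and NWD1 1, at 19.4 CPM, lay as low as AIN_VdrKO. On the deposited TPM scale the mean of Irak4 was 7.23 TPM in AIN_VdrKO and 6.11 in AINlowVitD, so that this direction turned. Irak4 was lower than in AIN, at -1.02 ± 0.29 log2 (edgeR adjusted p = 0.0236), while -0.82 ± 0.26 against the mean did not pass (edgeR adjusted p = 0.0919). Irak4 overlaps Twf1 on the opposite strand, and Twf1, an actin-binding protein, had a fold change of -0.04 ± 0.19 against the mean.

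Ano6, a calcium-activated channel and lipid scramblase, had 36.9, 79.1 and 49.2 CPM in AIN_VdrKO. AIN had 105, 103 and 257 CPM and AINlowVitD 226, 157 and 175 CPM. AIN_VdrKO did not overlap these groups, although NWD1 1, at 39.5 CPM, lay within its range. The spread was wide and -1.41 ± 0.45 log2 against the mean did not pass (edgeR adjusted p = 0.0891). For Lima1, an actin-bundling protein with a role in intestinal cholesterol uptake, the fold change was -0.62 ± 0.37 (edgeR adjusted p = 0.399). Its AIN_VdrKO libraries, at 216, 259 and 266 CPM, lay just below the lowest control library, AIN 1 at 271 CPM. On TPM the mean of Lima1 was 62.4 in AIN_VdrKO and 47.1 in AINlowVitD, so that this direction turned. Csrnp2, a nuclear protein, had 3.19, 3.65 and 5.39 CPM in AIN_VdrKO against 1.15 to 2.96 CPM in the 6 control libraries, with a fold change of 0.90 ± 0.35 (edgeR adjusted p = 0.173).

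The flanking genes include clusters of related genes. The 3 alpha-tubulin genes Tuba1a, Tuba1b and Tuba1c lie side by side, have near-identical sequences, and may share or lose reads in counting. Tuba1a had 42.2, 58.2 and 32.0 CPM in AIN_VdrKO and 79.9 to 154 CPM in AIN and AINlowVitD. Its fold change against the mean was -1.27 ± 0.53 log2 and did not pass (edgeR adjusted p = 0.209). Tuba1b, at -0.32 ± 0.36, and Tuba1c, at -0.41 ± 0.22, did not pass either (edgeR adjusted p of 0.699 and 0.344).

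Of the 3 amino acid transporters of the Slc38 family, Slc38a1 had a fold change of -0.11 ± 0.24 log2 against the mean and Slc38a2 of -0.01 ± 0.28. Slc38a4 had 1.58, 0.957 and 1.18 CPM in AIN_VdrKO, 2.63, 2.51 and 3.07 CPM in AIN and 0.448, 1.63 and 1.501 CPM in AINlowVitD. Slc38a4 was lower than in AIN, at -1.75 ± 0.54 (edgeR adjusted p = 0.039). It overlapped AINlowVitD, where the fold change was -0.48 ± 0.55 (edgeR adjusted p = 0.65).

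Per length, 5 of the 50 tested flanking genes had a mean over 100 TPM across the 21 libraries. They were Tmbim6, an inhibitor of cell death in the endoplasmic reticulum, at 277 TPM, Gpd1 at 218 TPM, and Tuba1b, Tuba1c and Tuba1a at 162, 148 and 131 TPM. At the other end, 7 had a mean under 1 TPM. Tmem117 averaged 7.08 TPM, Rpap3 10.6, Prkag1 33.3 and Lmbr1l 4.89, so the called genes were spread over the range of levels. Tmbim6 did not differ detectably against the mean (0.14 ± 0.25 log2, edgeR adjusted p = 0.829).

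**Figure D4:**
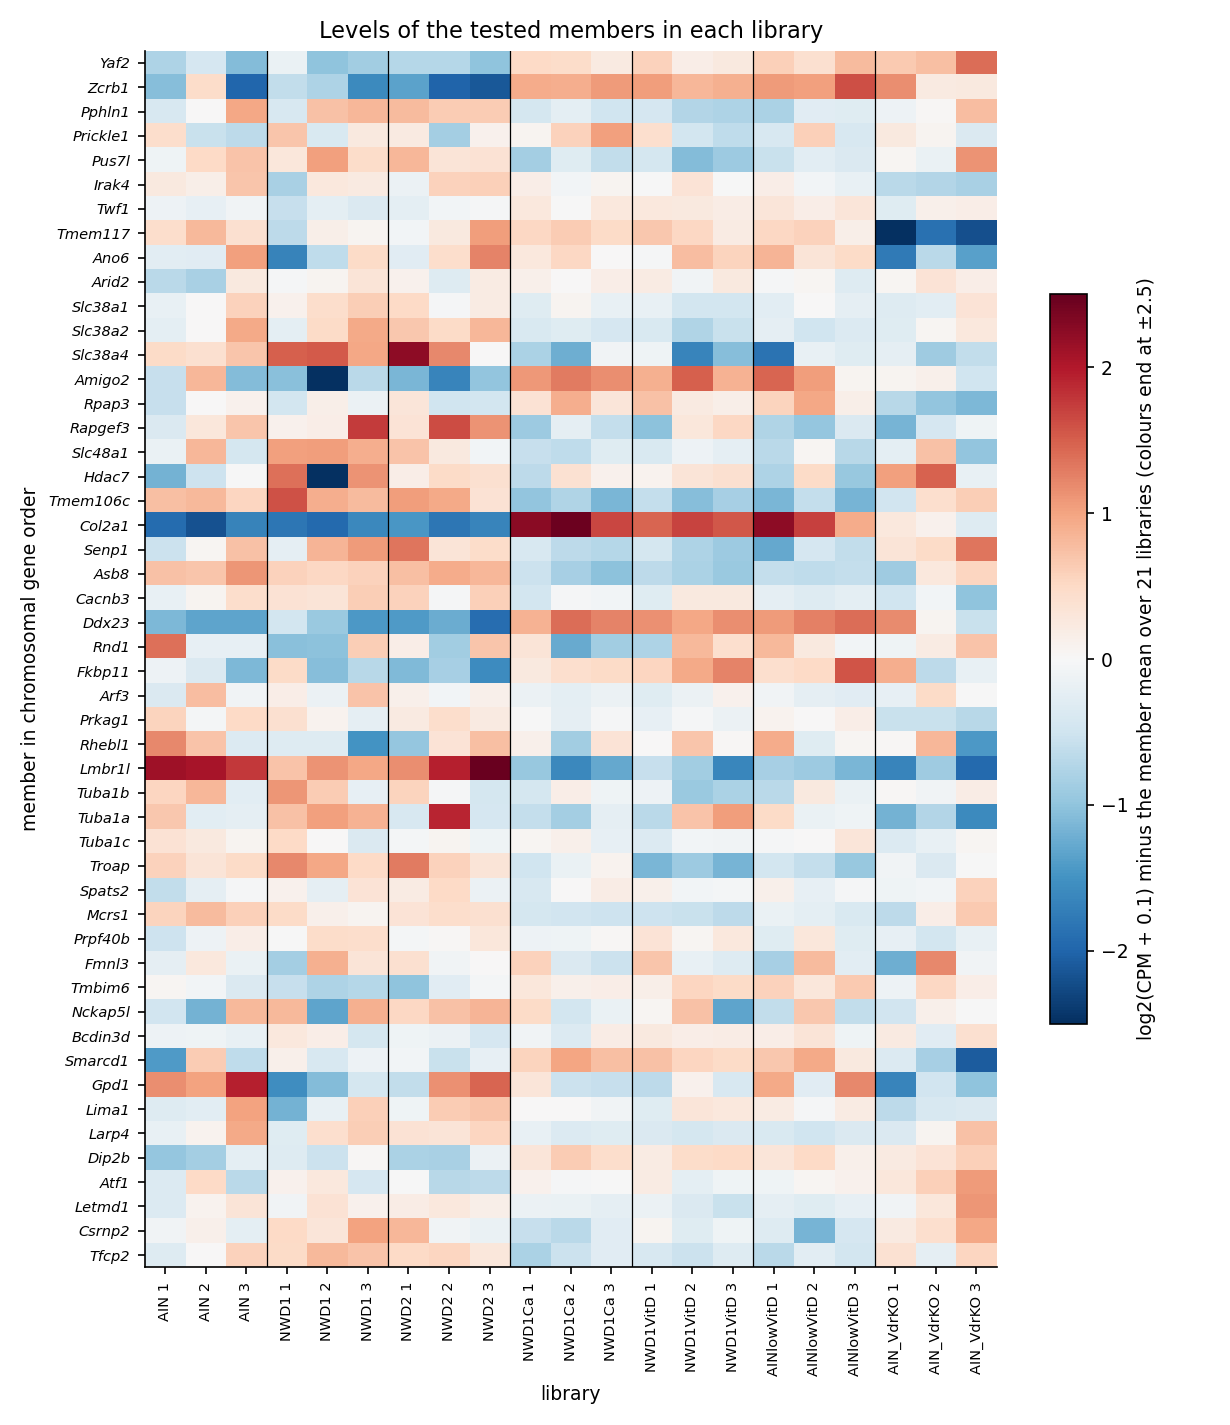
Log2(CPM + 0.1) of the 50 tested flanking genes (rows, in gene order) in the 21 libraries (columns, by group), less the mean of each gene over all libraries, with colours ending at ±2.5. Tmem117 is low in the 3 AIN_VdrKO libraries, while Col2a1, Ddx23 and Lmbr1l divide AIN, NWD1 and NWD2 from NWD1Ca, NWD1VitD and AINlowVitD.

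The median fold change of the 50 was 0.10 log2 against the mean, beside 0.03 over all tested genes. The median size of that change, without its sign, was 0.32 in the flanking genes and 0.42 over all. Against AIN the median was -0.12 beside -0.01, with a median size of 0.58 beside 0.59. Against AINlowVitD it was 0.11 beside 0.13, with a median size of 0.52 beside 0.51. Of the 50, 10 had a fold change beyond 1 in either direction.

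Against the other diets, AIN_VdrKO differed in 14 of the 50 from NWD1 (28%, against 19.0% of all tested genes) and in 20 from NWD2 (40%, against 26.8%). It differed in 2 from NWD1Ca (4%, against 0.841%), namely Tmem117 and Rpap3, both lower. From NWD1VitD it differed in 6 (12%, against 8.14%), with Tmem117, Rpap3 and Smarcd1 lower and Pus7l, Tmem106c and Senp1 higher. Tmem117 was thus the only flanking gene called against all 6 other groups, and Rpap3 was called against NWD1Ca, NWD1VitD and AINlowVitD. All 6 comparisons share the AIN_VdrKO libraries.

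The 25 other tested genes of the same stretch were called against the mean in 3 cases (12%), and none was called against both groups by edgeR or DESeq2, with 2 at an unadjusted p under 0.05 in both. On the rest of chromosome 15, 24 of 482 tested genes were called against the mean (4.98%), and 20 of 482 lay outside all 18 other libraries (4.15%). The 3 of the stretch, chosen here after their values were seen, were Mettl7a1, Mettl7a2 and Scaf11. Mettl7a1 and Mettl7a2 are neighbours with similar sequences, so their reads may be split unreliably. Mettl7a2 had 9, 9 and 43 counts in AIN_VdrKO and at most 3 in any other library, and Mettl7a1 was lower, at -0.98 ± 0.26 log2 against the mean (edgeR adjusted p = 0.0401). Scaf11, a splicing-related protein, was higher, at 0.92 ± 0.25 (edgeR adjusted p = 0.0452). Neither Mettl7a1 nor Scaf11 was called against AINlowVitD (edgeR adjusted p = 0.287 and 0.608). In both, AINlowVitD itself differed from AIN in the same direction (edgeR adjusted p = 0.0162 and 0.0013), so these calls rest on AIN.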

How the data were processed

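Bulk RNA was sequenced in 21 libraries of sorted Lgr5-EGFP cells. Per the labels' protocols, the SMART-Seq v4 and Nextera XT kits were used, and Nextera XT does not mark strand. The authors deposited unnormalised read counts of 37310 genes with 92 ERCC spike-ins. A second deposited table holds TPM of these genes. The build is mm9, and the tools named are HTSeq 0.6.1, STAR 2.4.2a and edgeR, per the submitters' processing notes. No reference of that build was used here, so only gene order (from GRCm38, 32620 identifiers placed) is given and no coordinates.

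Counts were tested with the two-sided quasi-likelihood F test of edgeR 4.0.16 (R 4.3.3). All 21 libraries entered 1 fit with TMM scaling, group means and a sex term. The filterByExpr function kept 16050 genes. Benjamini-Hochberg adjustment covered all of these, with 0.05 as the threshold, and standard errors come from the fold change and the F statistic. The fit was checked on simulated counts. The genes and lists were chosen with earlier results of these data known. Named genes are Vdr, those called against both groups or their mean, those outside all 6 control libraries, and the nearest tested gene on each side, and other genes illustrate the text. Alternatives were RLE scaling, DESeq2 1.42.0, limma 3.58.1 on log2(TPM + 1) and log2(TPM + 0.1), no filter, no sex term, males only, 3 groups only, a replicate block and each replicate left out. Chosen after seeing the data were the fit without AIN 1, AIN 2 and NWD1 1, the comparison with all 18 other libraries, and the tests against the other 4 groups. No replicate was a repeated library (chi-square per degree of freedom at least 51.7). The labels do not say more of how replicates were taken, so p-values measure the spread between these libraries. Counting error is small at these depths except for genes with few counts, and reads carry no molecular identifiers.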

Additional observations from a re-analysis of the deposited data

How the results depend on the processing

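Against AIN, 10 of the 50 flanking genes were called, beside 12.5% of all tested genes, and 5 on log2(TPM + 1) and 6 on log2(TPM + 0.1). Any count in this paragraph without its share of all tested genes, these on TPM included, cannot tell a change in the flanking genes from a change in all genes. Against AINlowVitD the count of 2 became 9 with DESeq2, 7 without a filter, 10 without the sex term, 1 with 3 groups only, 0 with males only (where each control group holds 1 library and its spread is taken from the other groups), 15 (14 higher) and 20 (19 higher) on TPM with a pseudocount of 1 and 0.1, where edgeR called none higher and where 32.1% and 39.2% of all genes were called, and 6 without AIN 1, AIN 2 and NWD1 1; it ranged from 1 to 12 with single replicates left out, the highest without AIN_VdrKO 1. In both comparisons the count of 1 became 2 with RLE scaling, 4 with DESeq2, without a filter, without the sex term and without AIN 1, AIN 2 and NWD1 1, 0 with males only and 2 on either TPM scale; it ranged from 1 to 2 with single replicates left out. Against the mean the count of 5 (of all genes, 3.53%) became 8 with DESeq2 (7.10%), 9 without the sex term (8.02%), 2 with 3 groups only (0.462%), 1 with males only (0.232%), 3 on either TPM scale (4.45% and 4.24%) and 10 without AIN 1, AIN 2 and NWD1 1 (9.34%); it ranged from 1 to 7 with single replicates left out, the lowest without AIN_VdrKO 3. Between AINlowVitD and AIN the count of 11, beside 31.3% of all tested genes, became 31 and 34 on TPM. There the median log2 fold change of all tested genes was -0.65 and -1.03, so these 2 counts are not particular to the flanking genes. Outside all 6 libraries the count of 9 became 3 on either TPM scale, beside 6.98% of all genes. The cause of these shifts was not tested, other than that TPM moves the median of all genes by -0.96 log2 between AINlowVitD and AIN. Among the 12 named flanking genes, no fold change against the mean turned its sign in these settings. Against AINlowVitD, group means turned from lower in CPM to higher in TPM for Prkag1 (20.9 against 17.4 TPM) and Irak4 (7.23 against 6.11). The same held for Lima1 (62.4 against 47.1) and Lmbr1l (0.819 against 0.605). Same-numbered libraries did not deviate together (correlations -0.17 to 0.31), and with the replicate block the counts were 10, 2, 1, 5 and 12 in the order above. The low counts of Col2a1, Hdac7 and Mettl7a2 limit what can be said of them.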

Other observations

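Acvrl1, a type I receptor of the TGF-beta family, lies beyond the stretch, as the 9th tested gene past Tfcp2, and was chosen after its values were seen. It had 0.202, 0.0870 and 0.0640 CPM in AIN_VdrKO (5, 2 and 9 counts) and at least 0.893 CPM in each other library. The log2 fold change was -4.01 ± 0.57 against the mean of AIN and AINlowVitD (edgeR adjusted p = 0.000678). Of the 10 tested genes past each end of the stretch, Acvrl1 was the only one called against the mean, beside 3.53% of all tested genes. Cpne8 and Slc2a13 on one side, and Smagp and Acvrl1 on the other, had all 3 AIN_VdrKO libraries outside the other 18. This was 2 of 10 on each side, beside 2.22% of all tested genes, and so few genes show no pattern. Cpne8 and Smagp were higher, and Slc2a13 and Acvrl1 lower. Cpne8, Slc2a13 and Smagp did not pass against the mean (edgeR adjusted p = 0.0997, 0.257 and 0.170). Counts were low for Cpne8 (at most 23 in any other library) and for Slc2a13 (13, 11 and 31 in AIN_VdrKO).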
